A study of Rattus norvegicus with 12 samples.

Results

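10 genes of leukocyte recruitment and cytokine signalling were followed through rat liver: the chemokines Cxcl1, Cxcl9, Cxcl10, Cxcl11 and Ccl2, the adhesion receptors Icam1 and Vcam1, the cytokine Il1b, and the feedback inhibitor Socs3 with the transcription factor Stat3. They were chosen by name, with earlier results of these data known, so the shares over all genes given below are a description and not a test. All 10 of the 10 were found among the 16558 genes of the deposited count tables. Bulk RNA sequencing of liver from Sprague Dawley rats, an outbred stock, gave 12 libraries in 4 groups of 3. The normal group (libraries N.1, N.2 and N.3) received saline. The model group (M.5, M.6 and M2.1) was fed a high-fat diet for 8 weeks to induce non-alcoholic fatty liver disease. The remaining groups, arm D (D.1, D.4 and D.7) and arm G (G.1, G.3 and G.4), were likewise induced with the high-fat diet and also received didymin, a citrus flavonoid glycoside. The labels name a lower and a higher dose but pair neither with a column letter, so no dose is attached to an arm. The labels used here do not say whether the model group received a vehicle, and no age or sex was given for the animals in the sources used.

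Chemokines are small secreted proteins that draw leukocytes along a gradient, and adhesion receptors on the vessel wall then hold those cells in place. In liver, Kupffer cells (the resident macrophages), endothelium, stellate cells and hepatocytes can all produce them under interleukin-1, interferon gamma or NF-kB signalling. Cytokines that act through gp130 activate STAT3, which drives acute-phase genes and also SOCS3, and SOCS3 in turn blocks the receptor and so closes a negative feedback loop.

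The stretches upstream of 4 of the genes are shown because inducible transcription of these genes is known to run through such elements, and because they are the chemokine and adhesion genes whose stretch holds the NF-kB motif. Each is the 250 bases before the annotated start, 5′ to 3′ on the gene's strand, from RefSeq on GRCr8, where 9 of the 10 genes had an entry (all but Ccl2). Capitals mark letters that match, on either strand, the NF-kB motif, the interferon element ISRE (GAAA repeated with any 2 bases between), the STAT element GAS (TTC and GAA with any 3 bases between) or AP-1 (TGANTCA), and overlapping matches run together.
Cxcl10: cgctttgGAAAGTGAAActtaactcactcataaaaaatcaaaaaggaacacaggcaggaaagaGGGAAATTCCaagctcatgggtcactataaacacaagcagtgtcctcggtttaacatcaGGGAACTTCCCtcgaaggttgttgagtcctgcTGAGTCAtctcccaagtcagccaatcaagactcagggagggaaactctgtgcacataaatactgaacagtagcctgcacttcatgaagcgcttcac
Cxcl11: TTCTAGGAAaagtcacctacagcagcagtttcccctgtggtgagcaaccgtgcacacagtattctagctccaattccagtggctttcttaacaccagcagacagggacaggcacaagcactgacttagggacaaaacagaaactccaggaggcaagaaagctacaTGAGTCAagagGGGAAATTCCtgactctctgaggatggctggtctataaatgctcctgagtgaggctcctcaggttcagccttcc
Cxcl1: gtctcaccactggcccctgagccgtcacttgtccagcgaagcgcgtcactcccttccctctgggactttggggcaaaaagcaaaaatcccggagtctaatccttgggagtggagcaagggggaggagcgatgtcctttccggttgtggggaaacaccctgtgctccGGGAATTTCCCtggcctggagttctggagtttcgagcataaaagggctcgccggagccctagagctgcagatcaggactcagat
Vcam1: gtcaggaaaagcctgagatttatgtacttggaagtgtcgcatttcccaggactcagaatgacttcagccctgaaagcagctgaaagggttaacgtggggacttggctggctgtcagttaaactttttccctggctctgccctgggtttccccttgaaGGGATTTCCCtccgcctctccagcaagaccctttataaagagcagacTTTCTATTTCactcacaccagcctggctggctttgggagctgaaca
Cxcl10 (chr14:15988816-15989065, plus strand) holds an ISRE, 3 NF-kB matches in 2 blocks, and an AP-1 match. Cxcl11 (chr14:15973478-15973727, plus strand) holds a GAS match at its far end and an AP-1 match next to an NF-kB match. Cxcl1 (chr14:17479322-17479571, minus strand) has a single NF-kB block, matched on both strands, and Vcam1 (chr2:206742784-206743033, minus strand) has an NF-kB block and an ISRE read from the opposite strand. Over the 9 genes, 5 held the NF-kB motif (these 4 and Socs3), against 6.33% of the 33469 RefSeq stretches of this length. An ISRE was found in 2 of 9 (Cxcl10 and Vcam1) against 3.41%, a GAS in 2 of 9 (Cxcl11 and Icam1) against 7.67%, and AP-1 in 2 of 9 (Cxcl10 and Cxcl11) against 6.34%. These matches describe letters in the reference and are not evidence of binding in these livers. In the RefSeq order of protein-coding genes, Cxcl11, Cxcl10 and Cxcl9 are direct neighbours on chromosome 14, Cxcl1 lies beside Cxcl2 on the same chromosome, and Ccl2 lies beside Ccl7 on chromosome 10.

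Total depth was even, at 12469914 to 15521648 counts per library. The share taken by the 13 mitochondrial genes ran from 3.85% to 61.0%, highest in G.3 (61.0%) and M.6 (44.1%). Depth over the nuclear genes was therefore uneven, at 4869054 counts in G.3 and 7173229 in M.6, and up to 14761817 in M2.1. G.3 and M.6 also had the lowest hepatocyte marker levels. The summed CPM (read counts relative to the TMM-scaled library size) of 10 markers such as albumin was 47847 and 78572 there. No other library was below 153652. All 10 hepatocyte markers passed the filter on low counts. The column name M2.1 differs in form from M.5 and M.6, for a reason the labels do not state. Levels below are CPM, with a mean and SD over 3 libraries, and differences are log2 fold changes with their standard error from edgeR's quasi-likelihood fit over all 12 libraries and 12355 genes, with Benjamini-Hochberg adjustment over those genes. CPM is not scaled by gene length, so levels are compared between libraries and not between genes. In bulk tissue, fewer cells of a type and less RNA per cell cannot be told apart.

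The normal group had the lowest mean for 8 of the 10 genes, namely every gene except Socs3 and Stat3, and the highest mean for those 2. The highest mean stood in arm D for 5 genes (Cxcl9, Cxcl10, Ccl2, Icam1 and Vcam1) and in arm G for 3 (Cxcl1, Cxcl11 and Il1b). Arm D had a higher fitted level than the model for all 10 genes, with a median log2 difference of 0.85, where the median over all tested genes was -0.04 and 46.7% of them were above 0. The fitted difference was above 0 for 8 of 10 in the model against normal (52.6% of all genes), 8 in arm G against the model (50%), 8 in arm D against normal (48.2%), 8 in arm G against normal (51.2%) and 5 in arm G against arm D (49%). With edgeR's quasi-likelihood test, 0 of the 10 genes had an adjusted p below 0.05 in any of the 6 comparisons, as had 0% of the 12355 genes tested. DESeq2 placed 1 of the 10 below it in arm D against normal (Ccl2), where it placed 84 of all 12355 genes. In arm G against normal it placed 1 (Cxcl1), where it placed 51 of all genes, and no other of the 10 in any comparison.

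At an unadjusted p below 0.05 in edgeR's test, 7 of the 10 genes were higher in arm D than in normal (Cxcl1, Cxcl9, Cxcl10, Ccl2, Icam1, Vcam1 and Il1b), where 4.22% of all genes were, and 0 were lower (2.12%). The 7 became 4 without N.2 (3.52% of all genes, either way), N.3 (7.37%), D.4 (3.56%) or D.7 (4.47%), against 6.34% with all libraries. Arm D against the model had 4 higher (Cxcl10, Ccl2, Vcam1 and Socs3) where 3.04% of all genes were, and 0 lower (3.24%). It had 1 higher without D.7 (3.75% of all genes, either way), 2 without D.4 (2.52%) and 6 without M.5 (6.68%), against 6.28% with all libraries. Arm G against the model had 2 higher (Cxcl1 and Socs3; 1.2%) and 0 lower (1.13%). Arm G against normal had 2 higher (Cxcl1 and Il1b) where 4.42% of all genes were, and 0 lower (2.17%). It had 1 higher without N.2 (3.02% of all genes, either way) and 4 without D.7 (5.3%), against 6.59% with all libraries. The model against normal had 1 higher (Cxcl9; 3.01%) and 1 lower (Socs3; 1.9%), and arm G against arm D had 0 higher (2.45%) and 1 lower (Vcam1; 0.971%). The 2 of the model against normal (4.91% of all genes, either way) became 1 without N.1 (2.6%), N.2 (2.26%) or M.5 (3.65%). They became 4 without M2.1, where 20.3% of all genes were at that p. The 1 between the arms (3.42%, either way) became 0 without N.2 (2.52%), D.7 (1.58%), G.1 (7.04%) or G.3 (1.49%). It became 2 without M.6 (4.19%) or M2.1 (4.59%) and 3 without D.1 (2.92%). Groups of libraries did not overlap for 6 of the 10 genes in arm D above normal (8.58% of all genes) and for 5 in arm G above normal (5.51%). The same held for 3 genes in arm D above the model (5.93%) and 2 in arm G above the model (2.61%). The model lay wholly above normal for 1 gene (5.25%) and wholly below it for 1 (5.29%), and arm G wholly below arm D for 2 (3.35%). The comparisons with the model share its 3 libraries, and those with normal share the 3 normal libraries.

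**Figure D1:**
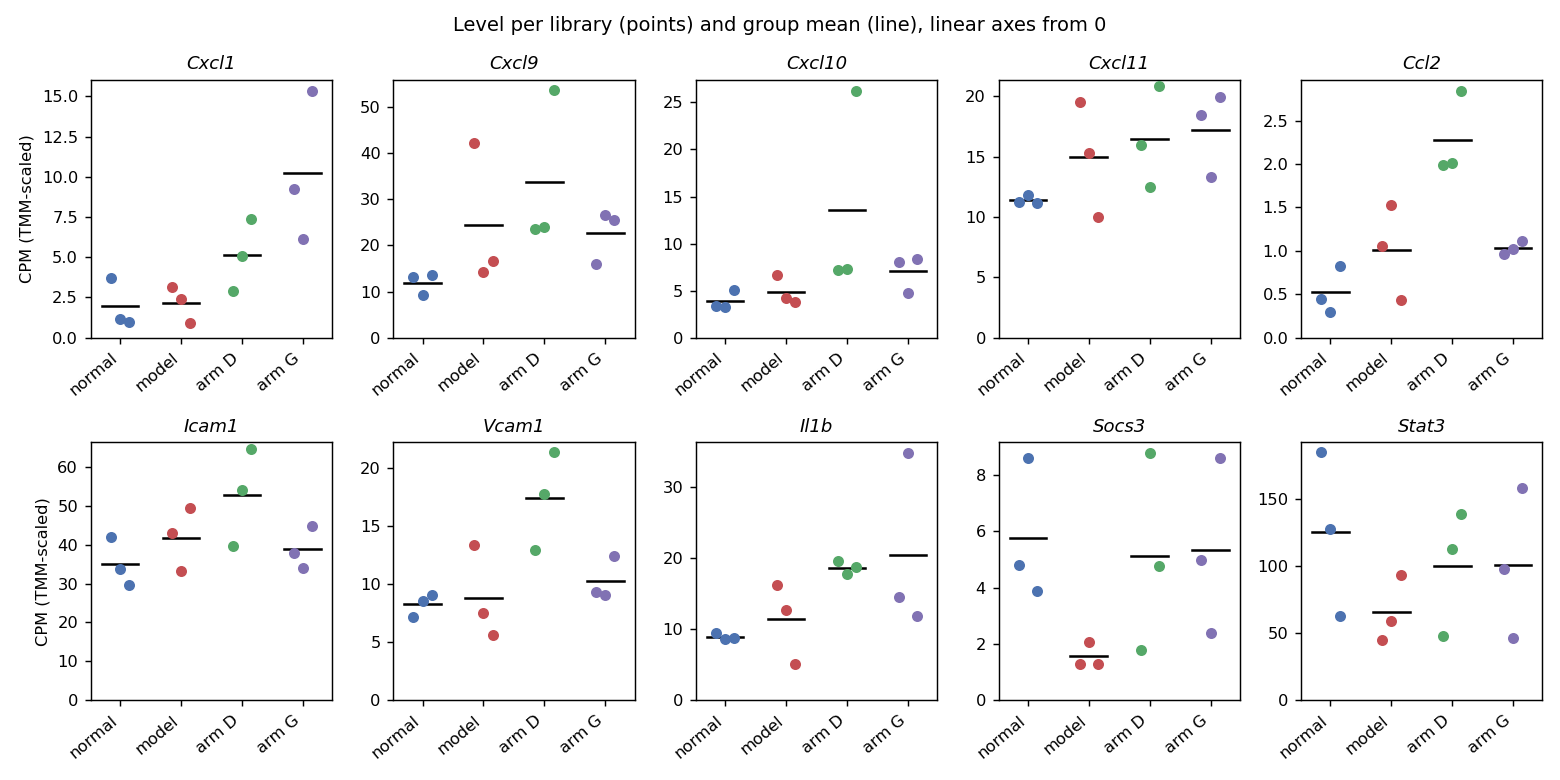
Levels of the 10 genes in each of the 12 libraries (CPM scaled by TMM, vertical axes), by group on the horizontal axes (N normal, M model, D and G the didymin arms), with a bar at each group mean. Cxcl1 was highest in the 3 arm G libraries and D.7, Ccl2 in the 3 arm D libraries, and Socs3 was low in all 3 model libraries.

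Among the interferon-inducible chemokines that signal through CXCR3 on T and NK cells, Cxcl9 and Cxcl10 stood highest in arm D, and a single library, D.7, had the highest level of all 3 genes. Cxcl10 was at 3.39, 3.24 and 5.07 CPM in the normal libraries, 6.64, 4.23 and 3.74 in the model, 7.17, 7.34 and 26.3 in arm D, and 8.05, 4.76 and 8.31 in arm G. All 3 arm D libraries lay above every normal and every model library, and D.7 was more than 3 times as high as any other library. The log2 difference of arm D was 1.48 ± 0.50 against the model (adjusted p = 0.783, edgeR's quasi-likelihood test) and 1.80 ± 0.51 against normal (adjusted p = 0.443). Without D.7 these differences were 0.58 and 0.89, and the first no longer had a p below 0.05.

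Cxcl9 was at 13.1, 9.19 and 13.5 CPM in the normal libraries, 42.2, 14.2 and 16.7 in the model, 23.6, 24.1 and 53.7 in arm D, and 15.9, 26.5 and 25.6 in arm G. Every library on the high-fat diet lay above every normal library, with M.5 and D.7 well above the rest of their groups. The log2 difference from normal was 1.03 ± 0.45 in the model (adjusted p = 0.866, edgeR), 1.50 ± 0.45 in arm D (adjusted p = 0.490) and 0.92 ± 0.45 in arm G (adjusted p = 0.723). These 3 differences share their normal libraries. The model's difference from normal was 0.37 without M.5, and its p was also above 0.05 when any 1 of the normal libraries was left out.

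Cxcl11 was the steadiest of the chemokines in normal liver, at 11.2, 11.8 and 11.1 CPM, a coefficient of variation of 3.17%. It was at 19.5, 15.3 and 9.98 in the model, 15.96, 12.5 and 20.8 in arm D, and 18.5, 13.3 and 19.96 in arm G. Both arms lay entirely above normal, while M2.1 in the model was the lowest of all 12 libraries. The log2 difference from normal was 0.53 ± 0.29 in arm D (adjusted p = 0.891, edgeR) and 0.60 ± 0.29 in arm G (adjusted p = 0.723).

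Cxcl1, a neutrophil attractant that signals through CXCR2, differed most in arm G. Its counts were low: 58, 19 and 13 in the normal libraries, 39, 27 and 17 in the model, 41, 88 and 122 in arm D, and 145, 54 and 221 in arm G. In CPM these were 3.71, 1.14 and 0.969 in normal, 3.16, 2.43 and 0.922 in the model, 2.91, 5.05 and 7.38 in arm D, and 9.26, 6.13 and 15.3 in arm G. The arm G libraries all lay above every normal and model library, although D.7 lay above G.3. The fitted level in arm G was 4.77-fold that of the model, a log2 difference of 2.25 ± 0.62 (adjusted p = 0.9997, edgeR), and 5.25-fold that of normal, 2.39 ± 0.62 (adjusted p = 0.616). Both kept a p below 0.05 without any single library. Arm D stood between, at 1.25 ± 0.61 against the model (adjusted p = 0.801), and the arms themselves differed by 1.002 ± 0.59 (adjusted p = 0.999). The receptor Cxcr2 had 71 counts over all 12 libraries and was too low to be tested.

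Ccl2, which draws CCR2-bearing monocytes, had the fewest counts of the 10 genes: 7, 5 and 11 in normal, 13, 17 and 8 in the model, 28, 35 and 47 in arm D, and 15, 9 and 16 in arm G. Scaled, these were 0.448, 0.3005 and 0.820 CPM in normal, 1.05, 1.53 and 0.434 in the model, 1.99, 2.01 and 2.84 in arm D, and 0.958, 1.02 and 1.11 in arm G. Arm D lay above all other libraries, and arm G lay within the range of the model. Arm D differed by 2.12 ± 0.56 on the log2 scale from normal, a 4.35-fold higher fitted level (adjusted p = 0.411, edgeR), and by 1.20 ± 0.54 from the model (adjusted p = 0.788). Arm G lay 1.14 ± 0.54 below arm D on that scale (adjusted p = 0.999), without overlap. The difference between arm D and the model was 0.82 without M2.1 and 1.63 without M.6. Ccr2, the receptor, had 2 counts in all.

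The adhesion receptors stood highest in arm D. Vcam1, an endothelial receptor for the integrin VLA-4, was at 7.17, 8.53 and 9.10 CPM in normal, 13.4, 7.56 and 5.59 in the model, 12.98, 17.8 and 21.4 in arm D, and 9.33, 9.07 and 12.4 in arm G. Arm D lay above all normal and all arm G libraries, and only M.5 of the model reached its range. The log2 difference of arm D was 0.98 ± 0.33 from the model (adjusted p = 0.783, edgeR's quasi-likelihood test) and 1.07 ± 0.33 from normal (adjusted p = 0.500). Arm G differed from arm D by -0.76 ± 0.33 (adjusted p = 0.999), and from the model by 0.22 ± 0.33 (adjusted p = 0.9997).

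Icam1, the receptor for the integrins LFA-1 and Mac-1, overlapped between all groups. It was at 42.01, 33.8 and 29.6 CPM in normal, 43.02, 33.1 and 49.3 in the model, 39.6, 53.9 and 64.5 in arm D, and 37.9, 34.03 and 44.8 in arm G. D.7 and D.4 were the highest of all 12 libraries, while D.1 lay among the normal and model ones. Its log2 difference from normal was 0.58 ± 0.25 in arm D (adjusted p = 0.742, edgeR) and 0.41 without D.7. In the model it was 0.25 ± 0.25 and in arm G 0.15 ± 0.25.

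Il1b, the inflammatory cytokine that macrophages release after inflammasome cleavage, was even within normal liver and within arm D. It was at 9.41, 8.59 and 8.80 CPM in normal (a coefficient of variation of 4.77%), 16.3, 12.8 and 5.15 in the model, 19.6, 17.7 and 18.8 in arm D (4.98%), and 14.5, 34.8 and 11.8 in arm G. Arm D lay above every normal and model library, and both arms lay above normal. The highest level was that of G.3 and the lowest that of M2.1. The log2 difference from normal was 1.06 ± 0.44 in arm D (adjusted p = 0.714, edgeR) and 1.18 ± 0.44 in arm G (adjusted p = 0.723). In arm G it was 0.57 without G.3, the library with the largest mitochondrial share. For arm D it stayed between 1.03 and 1.10 whichever library was left out.

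Socs3, the feedback inhibitor of gp130 receptors, was low in the model. Its counts were 75, 143 and 52 in normal, 16, 23 and 24 in the model, 25, 153 and 79 in arm D, and 78, 21 and 124 in arm G, which gave 4.80, 8.59 and 3.88 CPM in normal, 1.30, 2.07 and 1.30 in the model, 1.77, 8.78 and 4.78 in arm D, and 4.98, 2.38 and 8.59 in arm G. The model lay below all normal and all arm G libraries, and within arm D only D.1 fell in its range. The fitted level was 3.72-fold lower in the model than in normal, a log2 difference of -1.89 ± 0.61 (adjusted p = 0.866, edgeR), and it stayed between -2.15 and -1.49 whichever library was left out. In the authors' deposited table, which compares those 6 libraries alone, the log2 value of normal over model was 1.90 with an adjusted p of 0.0469. No other of the 10 genes had an adjusted p below 0.05 in any of the authors' deposited tables.

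Against the model, Socs3 differed by 1.72 ± 0.61 in arm D (adjusted p = 0.783, edgeR) and by 1.79 ± 0.61 in arm G (adjusted p = 0.9997). These comparisons use the same low model libraries. The differences were 1.08 without D.4 and 1.25 without G.4, and neither then had a p below 0.05. From normal, the arms differed by -0.17 ± 0.57 and -0.11 ± 0.57.

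Stat3, whose protein carries gp130 signals to the nucleus, varied widely within every group. It was at 185, 127 and 63.1 CPM in normal, 44.6, 58.7 and 93.3 in the model, 47.8, 113 and 139 in arm D, and 98.1, 46.7 and 158 in arm G. All groups overlapped. The model differed from normal by -0.93 ± 0.53 (adjusted p = 0.866, edgeR), and by -1.28 without M2.1 and -0.54 without N.1. Over the 12 libraries the log2 level of Stat3 had a Pearson correlation of -0.80 with the log2 mitochondrial share. That of Socs3 was -0.55 and that of Il1b 0.59. These describe 12 libraries that differ in depth of nuclear reads, and the part of the mitochondrial share in the results was not tested beyond the fit with it as a covariate. In that fit the model differed from normal in 0 of the 10 genes at an unadjusted p below 0.05 (4.22% of all genes, either way).

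**Figure D2:**
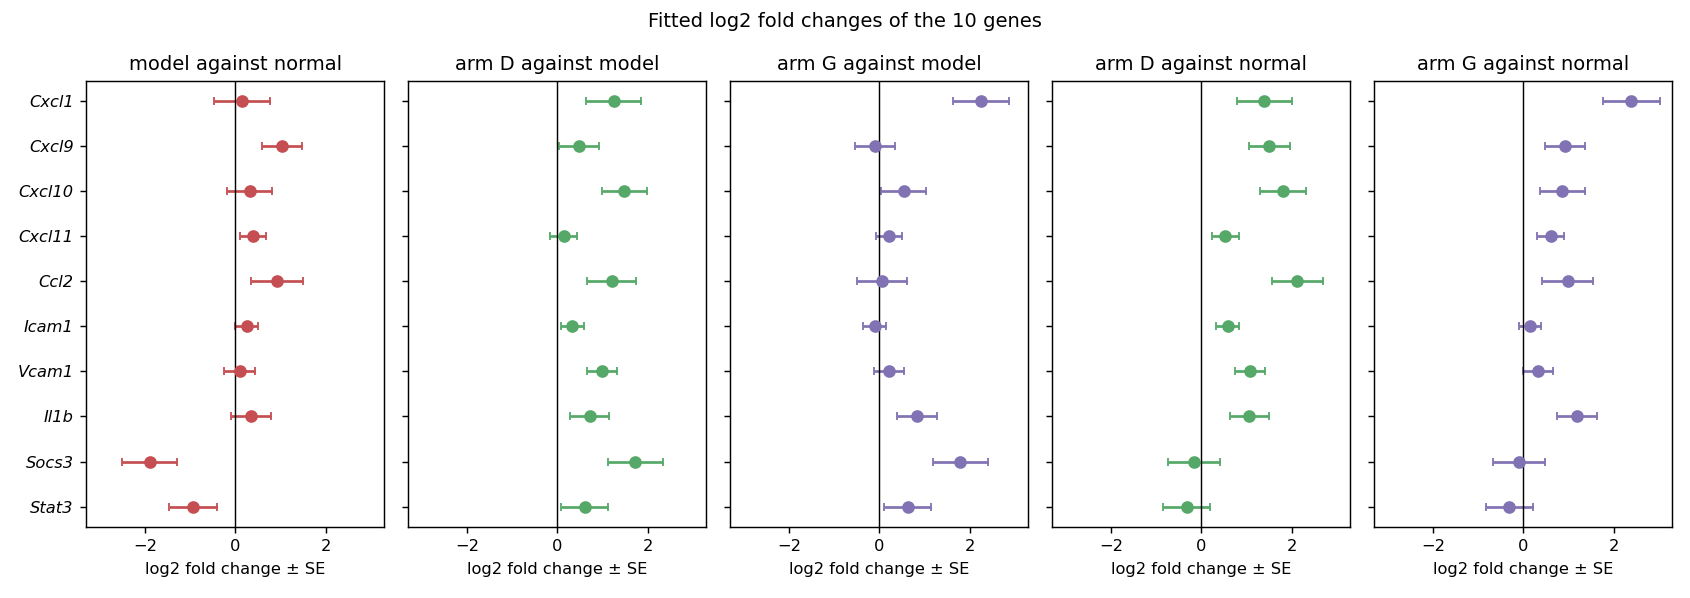
Log2 fold changes (horizontal axes) of the 10 genes in 5 comparisons, 1 panel each, as points with bars of 1 standard error from edgeR's quasi-likelihood fit. All 10 points lie above 0 in arm D against the model, and Socs3 and Stat3 are the only genes below 0 in the model against normal.

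The levels moved by library as well as by group. D.7 had the highest level within arm D for 8 of the 10 genes and the highest of all 12 libraries for 6 (Cxcl9, Cxcl10, Cxcl11, Ccl2, Icam1 and Vcam1). D.1 had the lowest level within arm D for 8, all but Cxcl11 and Il1b. M2.1 had the lowest level of all 12 libraries for Cxcl1, Cxcl11, Vcam1 and Il1b. In arm G, G.4 was highest for 8 genes and G.3 lowest for 7. Of the 45 pairs of these genes, 38 had a positive correlation of log2 CPM over the 12 libraries and 9 had one above 0.7, with a median of 0.51. The highest were Cxcl10 with Vcam1 (0.84), Cxcl9 with Cxcl10 (0.79) and Ccl2 with Vcam1 (0.79), and Socs3 with Stat3 reached 0.74. The libraries behind these values share group, depth and tissue makeup.

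**Figure D3:**
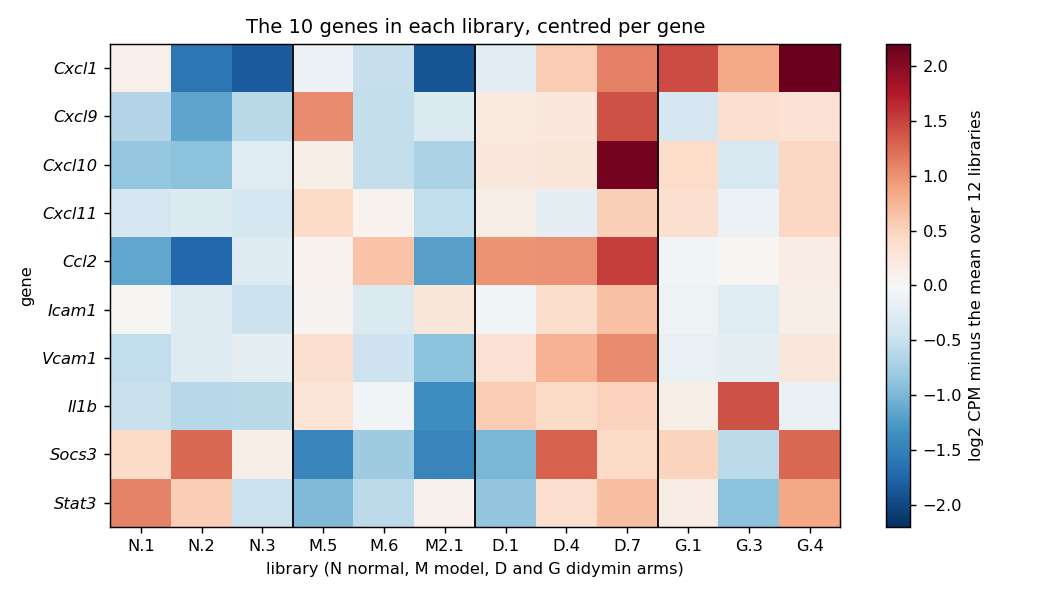
Log2 CPM of the 10 genes (vertical) in the 12 libraries (horizontal, by group), each gene centred on its own mean, with colour from low to high. The column D.7 is high for most chemokines and for both adhesion receptors, and the column M2.1 is low for Cxcl1, Cxcl11, Vcam1 and Il1b.

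Markers of other cells moved with some of these groups. Of the 12 Kupffer cell markers, 12 had a higher fitted level in arm D than in the model (46.7% of all genes), with a median log2 difference of 1.44. Of these, 11 were at an unadjusted p below 0.05 (3.04% of all genes) and 0 at an adjusted one (edgeR). In arm G the 12 markers were also all higher than in the model (50% of all genes). Their median there was 0.59, with 0 at an unadjusted p below 0.05 (1.2%). Their summed level was 639 to 874 CPM in normal, 309 to 700 in the model, 626 to 1931 in arm D and 409 to 931 in arm G. Within arm D it was 626 in D.1, 1931 in D.4 and 1292 in D.7, so that D.1, the library lowest in 8 of the 10 genes, was also lowest here, while D.4 and not D.7 was highest. The 8 tested markers of sinusoidal endothelium, cells that can carry Vcam1 and Icam1, summed to 247 to 297 CPM in normal, 170 to 240 in the model, 304 to 355 in arm D and 205 to 292 in arm G, so that normal and arm D both lay above the model. T and NK cell markers, from the cells that answer Cxcl9 to Cxcl11, summed to 15.4 to 26.8 CPM in normal, 16.5 to 40.8 in the model, 40.9 to 51.5 in arm D and 24.0 to 56.4 in arm G. Neutrophil markers, from the cells that answer Cxcl1, summed to 1.68 CPM in M2.1, 9.48 in M.5, 33.6 in M.6 and 38.9 in G.3, and to 5.63 to 19.4 in the other 8 libraries. The part of these cells in the results was not tested.

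Other genes of the same pathways were read from lists of related genes, none of which had a gene below an adjusted p of 0.05 (edgeR) in any comparison. Of 18 other chemokines tested, 18 had a higher fitted level in arm D than in normal (48.2% of all genes), 3 of them at an unadjusted p below 0.05 (4.22%). Against the model, where 46.7% of all genes were higher and 3.04% were so at that p, 12 of 18 were higher in arm D, 2 at that p, with Ccl6, a macrophage chemokine, at 98.6, 292 and 227 CPM in arm D and 97.1, 55.6 and 65.2 in the model (1.50 ± 0.37, adjusted p = 0.783). Cxcl2, the neighbour of Cxcl1, had only 0 to 17 counts per library, and at 1.02, 1.93 and 0.0693 CPM the arm G libraries overlapped the model (0.162, 0.270 and 0.0542). Of 12 chemokine receptors, 10 were higher in arm D than in the model (46.7% of all genes) and 11 in arm G (50%). At an unadjusted p below 0.05 these were 1 in arm D (3.04% of all genes) and 0 in arm G (1.2%). Cxcr3, the receptor of Cxcl9 to Cxcl11, was at 0.320, 1.08 and 1.94 CPM in normal and 3.48, 4.99 and 3.63 in arm D, without overlap (1.86 ± 0.57, adjusted p = 0.498).

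Of 12 other adhesion genes tested (integrins, selectins and their partners), 11 were higher in arm D than in the model (46.7% of all genes). Of these, 5 were at an unadjusted p below 0.05 (3.04% of all genes), and the median log2 difference of the 12 was 0.99. Itgal, the LFA-1 chain that binds Icam1, was at 10.9, 11.9 and 15.8 CPM in the model and 12.6, 52.0 and 46.1 in arm D (a log2 difference of 1.52 ± 0.45, adjusted p = 0.783). Selplg, a ligand of selectins, was at 3.65, 3.06 and 4.01 in the model and 4.19, 15.1 and 9.14 in arm D (1.41 ± 0.40, adjusted p = 0.783). In both genes D.1 lay close to the model and the other arm D libraries well above it. Of 13 interferon gamma pathway genes, 11 were higher in arm D than in the model, 6 at an unadjusted p below 0.05. The summed level of the 16 genes of the list, with those too low to test, was 168 CPM in D.1, the lowest of all 12 libraries, against 413 in D.4, 498 in D.7 and 179 to 192 in the model. Ifng itself had 7 counts in all 12 libraries. Of 18 interleukin-1 pathway genes, 12 were higher and 1 of them was at that p, the inflammasome sensor Nlrp3 (1.64 ± 0.49, adjusted p = 0.783). Of 16 NF-kB pathway genes, 11 were higher in arm D than in the model and 1 was at that p. A single gene in lists of this size is close to the 3.04% of all genes.

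Around Socs3 and Stat3, 18 of 22 genes of the gp130, JAK and STAT3 pathway and 16 of 21 STAT3-responsive liver genes had a lower fitted level in the model than in normal, with median log2 differences of -0.23 and -0.28, and 1 and 0 of them were at an unadjusted p below 0.05 (1.9% of all genes were lower at that p). In the same comparison 10 of 10 hepatocyte markers and 12 of 12 Kupffer cell markers were lower, with medians of -0.54 and -0.58. Over all tested genes 52.6% had a difference above 0 there, and the median was 0.03. The STAT3-responsive list consists largely of genes that hepatocytes express and shares Fgb with the hepatocyte markers, and the part of these cells was not tested. The pathway gene at that p was Cish, another SOCS-family inhibitor, known for STAT5 and growth hormone feedback. Cish was at 57.0, 73.5 and 39.9 CPM in normal, 22.6, 6.57 and 1.41 in the model, 8.37, 4.36 and 10.1 in arm D, and 2.24, 4.54 and 3.95 in arm G. Every library of the model and of both arms lay below every normal library. The log2 difference from normal was -2.48 ± 0.72 in the model (adjusted p = 0.745, edgeR), -2.90 ± 0.73 in arm D (adjusted p = 0.378) and -4.00 ± 0.78 in arm G (adjusted p = 0.344). Socs2, of the same family, was at 89.1, 137 and 153 CPM in normal, 32.6, 25.1 and 50.8 in arm D, and 10.3, 16.0 and 53.0 in arm G, and both arms lay below normal. In the model it was at 145.9, 72.7 and 15.1 CPM, so that M.5 lay within the normal range and M2.1 far below it.

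Among the STAT3-responsive genes, 18 of 21 were higher than the model in each arm (46.7% of all genes in arm D and 50% in arm G). At an unadjusted p below 0.05, 3 were higher (3.04% of all genes) and 1 lower (3.24%) in arm D. In arm G 3 were higher (1.2%) and 0 lower (1.13%) at that p. Of the 10 hepatocyte markers, 9 were higher than the model in arm D and 6 in arm G, and their part was not tested. Junb, an immediate-early transcription factor, was at 55.9, 108 and 56.3 CPM in the model, 229, 140.2 and 174 in arm D, and 323, 245 and 162 in arm G, without overlap. Its log2 difference from the model was 1.30 ± 0.35 in arm D (adjusted p = 0.783) and 1.73 ± 0.35 in arm G (adjusted p = 0.9997, edgeR). Bcl6, a transcriptional repressor, set the arms apart: it was at 7.59, 8.95 and 5.93 CPM in arm D and 70.8, 71.9 and 26.5 in arm G, with 10.2 to 22.1 in the normal and model libraries. The difference of arm G from arm D was 2.91 ± 0.40 (adjusted p = 0.114, edgeR). The cytokine Osm, which signals through gp130, had 1 to 18 counts per library. It was at 0.320, 0.661 and 0.0746 CPM in normal, 0.162, 0.450 and 0.108 in the model, and 0.639 or more in every library of both arms, so that N.2 lay in the range of the arms. Il6 had 8 counts over all libraries.

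**Figure D4:**
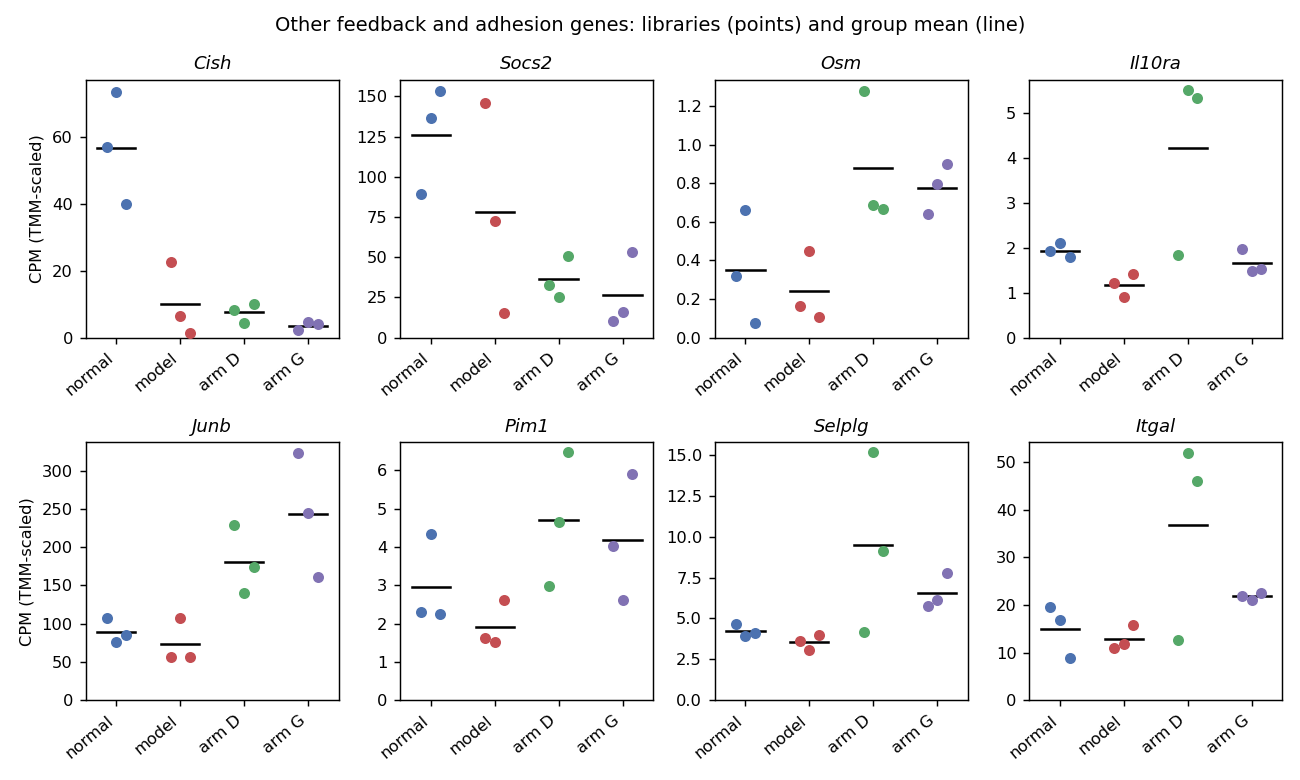
Levels (CPM, vertical axes) of 8 related genes in the 12 libraries by group, with a bar at each group mean. Cish, Socs2, Osm and Il10ra are from the gp130, JAK and STAT3 pathway list, and Junb and Pim1 from the STAT3-responsive list. Selplg and Itgal are adhesion genes. Cish is high in the 3 normal libraries and low in all others, and Junb is high in both arms.

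The genes whose log2 CPM followed each of the 10 most closely over the 12 libraries are given as a description of these libraries. Cxcl9 was followed by Zfp275 (r = 0.96), the immunoproteasome subunit Psmb9 (0.91) and the interleukin-18 binding protein Il18bp (0.90). Vcam1 was followed by Fcer1g (0.92), Tgfb1 (0.92) and Anxa3 (0.91), and Il1b by Tlr13 (0.95), Tmem173 (0.91) and Foxs1 (0.90). Icam1 was followed by Hk2, Abcg1 and Fcgr3a, each at 0.89, and Ccl2 by Calhm2 (0.93), Nt5c (0.90) and Fbln2 (0.90, from few counts of Ccl2). Cxcl10 was followed by Camk2d, Pik3c3 and LOC100910270 (0.89 to 0.90), and Cxcl11 by Pik3c3 (0.83), Tff3 (0.82) and Pla2g7 (0.82). Socs3 was followed by Kng1 (0.93), C4a (0.89) and Elf3 (0.87), and Stat3 by Tnfrsf1b (0.95), Rpl7l1 (0.93) and Ddx21 (0.92). Cxcl1 was followed by genes that include Mzb1 (0.85), a gene of plasma cells, and AABR07051730.1 (0.84). None of the 10 was among the 3 closest of another.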

How the data were processed

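Liver RNA was taken with Trizol, and libraries were made with NEBNext Ultra reagents, per the labels. The authors deposited 3 tables of 6 libraries each. Their readCount columns are raw counts of reads per gene, per the file headers. They also hold the authors' log2 fold changes, p-values and adjusted p-values, used only where named. The submitters' processing notes list DESeq2 and mm9. The latter is a mouse build, so no coordinate was taken from the files. No aligner or strand setting was named in the sources used. The tables were joined on gene name into 16558 genes, and 36 other per-sample columns were left unused. Columns match the labels by group only, and D and G were split by letter. Libraries were not tied to animals by any label, so a p-value here measures spread between libraries, which may be technical. No 2 libraries of the same group agreed within sampling noise (chi-square per degree of freedom 22.4 to 893).

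edgeR 4.0.16 (R 4.3.3) fitted all 12 libraries with a mean per group on 12355 genes kept by filterByExpr, with TMM scaling, the quasi-likelihood test and Benjamini-Hochberg adjustment at 0.05. Residual degrees of freedom were 8, prior ones 4.32, and the common biological coefficient of variation 0.409. The fit was checked on simulated counts. Alternatives used DESeq2 1.42.0 and limma 3.58.1 and other scalings, filters, covariates and samples. The 10 genes and the lists were chosen with earlier results of these data known. Up to 3 genes of each other list per comparison, those of smallest p, could be named, and for each of the 10 the 3 genes most correlated with it; 1 such gene is not reported here. Promoter stretches come from RefSeq (GRCr8), matched by symbol.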

Additional observations from a re-analysis of the deposited data

How the results depend on the processing

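No paired analysis was possible because the numbers in the column names do not follow the replicate numbers of the labels. Low counts limit the precision for Ccl2 in every library, and for Cxcl1 and Socs3 in the libraries where they had the fewest (13 and 16 counts at the lowest). Over 60 fold changes and 9 alternatives, 515 of 540 values kept their direction and side of the adjusted threshold, 15 changed sign and 10 newly passed.

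At an adjusted p below 0.05 the count of the 10 genes was 0 by edgeR in each comparison and 0 whichever library was left out. In arm D against normal it was 1 with DESeq2 (Ccl2), which placed 84 of all 12355 genes there. With limma-voom quality weights it was 7, a setting that placed 941 of all 12355 genes there. In arm G against normal it was 1 in each of these (Cxcl1), where DESeq2 placed 51 of all genes and quality weights 47.

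The shares in this paragraph are those of all genes at an unadjusted p below 0.05 in the same setting, either way. At that p the model against normal had 2 genes (4.91%). It had 1 with limma-voom (4.3%), 4 with quality weights (29%) and 0 with the mitochondrial share as a covariate (4.22%). When single libraries were left out it had 1 to 4, with 4 without M2.1 (20.3%). Arm D against the model had 4 (6.28%), with 1 without D.7 (3.75%), 2 without D.4 (2.52%) and 6 without M.5 (6.68%). Arm G against the model had 2 (2.32%), and 3 with quality weights (12.8%) or the covariate (5.4%). Without single libraries it had 2 to 3, with shares from 1.84% without D.7 to 7.31% without G.3. Arm D against normal had 7 (6.34%), with 4 without N.2 (3.52%), N.3 (7.37%), D.4 (3.56%) or D.7 (4.47%) and up to 7. Arm G against normal had 2 (6.59%), but 1 with limma-voom (4.23%) or the covariate (4.51%) and 6 with quality weights (15.7%). It had 4 with the 2 groups alone (5.26%), and 1 without N.2 (3.02%) to 4 without D.7 (5.3%). Arm G against arm D had 1 (3.42%), but 2 with DESeq2 (4.99%), limma-voom (1.62%), the covariate (2.82%) or the 2 groups alone (2.29%). It had 4 with quality weights (7.54%), 0 without M.6 and G.3 (1.94%), and 0 to 3 without single libraries.

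The following fold changes changed sign. With limma-voom they were -0.0276 for Vcam1 in the model against normal, 0.0227 for Cxcl9 in arm G against the model, and -0.0322 for Stat3 and -0.0997 for Il1b in arm G against arm D. With quality weights they were -0.0211 for Cxcl11 in arm D against the model, 0.00945 for Icam1 in arm G against the model and -0.43 for Il1b in arm G against arm D. With the covariate they were -0.29 for Il1b in the model against normal, 0.26 for Socs3 and 0.21 for Stat3 in arm G against normal, and -0.34 for Il1b in arm G against arm D. Without M.6 and G.3 they were 0.24 for Socs3 and 0.0491 for Stat3 in arm G against normal and -0.52 for Il1b in arm G against arm D, where Stat3 was -0.00677 without the filter on low counts. The cause was not tested.

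When single libraries were left out, the model against normal ran from -0.25 to 1.01 for Cxcl1, -0.34 to 0.34 for Vcam1 and -0.00795 to 0.70 for Il1b. Arm D against the model ran from -0.0286 to 1.13 for Cxcl9 and -0.0807 to 0.38 for Cxcl11. Arm G against the model ran from -0.38 to 0.55 for Cxcl9, -0.0114 to 0.45 for Cxcl11, -0.32 to 0.49 for Ccl2, -0.25 to 0.0323 for Icam1 and -0.0263 to 0.65 for Vcam1. Arm D against normal ran from -0.81 to 0.24 for Socs3 and -0.65 to 0.0647 for Stat3, and arm G against normal from -0.65 to 0.30 and -0.80 to 0.0842. Arm G against arm D ran from -0.0936 to 0.28 for Cxcl11, -0.52 to 0.37 for Il1b, -0.48 to 0.70 for Socs3 and -0.48 to 0.34 for Stat3.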
